A study of Mus musculus with 28 samples.

Results

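Cultures of O9-1 cells taken through an osteoblast protocol were compared with cultures taken through a smooth muscle protocol, both at 21% oxygen. O9-1 is a mouse cell line derived from the cranial neural crest. All 4 osteoblast and all 4 smooth muscle libraries at 21% oxygen were used, which are 8 of the 28 libraries and 2 of the 8 groups of the series. The remaining groups are proliferating and chondrocyte cultures at 21% oxygen and the same 4 kinds of culture at 0.5% oxygen. Osteoblast cultures were kept for 10 days in alpha-MEM with 10% foetal calf serum, 10 mM beta-glycerophosphate, 0.1 µM dexamethasone and 100 ng/ml BMP-2. Smooth muscle cultures were kept for 3 days in DMEM with 10% foetal calf serum and received no BMP-2, dexamethasone or beta-glycerophosphate. Medium, agents and days in culture thus differ together, and their parts in any difference cannot be told apart. Poly(A) RNA was sequenced from 400 ng of input per library. The labels do not say that the 4 libraries of a group came from separate cultures, so p-values measure the spread between these libraries, which may be technical.

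Cranial neural crest cells give rise to the bones, cartilage and part of the vessel wall muscle of the head. BMP-2 acts through receptor kinases and SMAD proteins on genes such as those of the Id, Msx and Dlx families. Dexamethasone binds the glucocorticoid receptor, which then acts on its target genes in the nucleus. Contractile smooth muscle genes are driven by serum response factor together with its coactivators, among them myocardin.

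Total counts per library were similar, at 23357645 to 27748241 for osteoblast and 25611647 to 28923765 for smooth muscle cultures. Of the genes with a count, 14573 passed the filter on low counts and were tested with edgeR's quasi-likelihood test. A gene is called where its Benjamini-Hochberg adjusted p over all tested genes is under 0.05. Levels are given as CPM, counts per 1000000 of the TMM-scaled counts of the tested genes. Means are given ± SD over the 4 libraries of a group and log2 fold changes, osteoblast over smooth muscle, ± SE. Of the tested genes, 7249 were called (49.7%), with 3691 higher in osteoblast cultures (25.3%) and 3558 higher in smooth muscle cultures (24.4%). In 6536 of the called genes the 4 osteoblast values did not overlap the 4 smooth muscle values. Adding the criterion of a 2-fold or larger difference left 1131 genes that were higher in osteoblast cultures (7.76%) and 1237 that were higher in smooth muscle cultures (8.49%). At 8-fold or more the calls leaned the other way, with 266 genes higher in osteoblast and 166 in smooth muscle cultures, and at 32-fold or more with 95 and 25. In bulk RNA, fewer cells of a type and less RNA per cell cannot be told apart. The split depended on the scaling. Dividing counts by library size, with no TMM factor, moved the median difference over all tested genes from -0.000487 to -0.215 (log2), and the share of called genes that were higher in osteoblast cultures moved from 50.9% to 28.4% (from 47.8% to 34.6% with the 2-fold criterion). With library size alone, 2313 of the 14573 genes were called higher in osteoblast and 5832 higher in smooth muscle cultures. Counts for gene lists below stand beside the calls over all tested genes in the same fit. The 10 most abundant genes took 8.82% to 9.65% of counts in osteoblast and 6.5% to 7.08% in smooth muscle libraries.

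**Figure D1:**
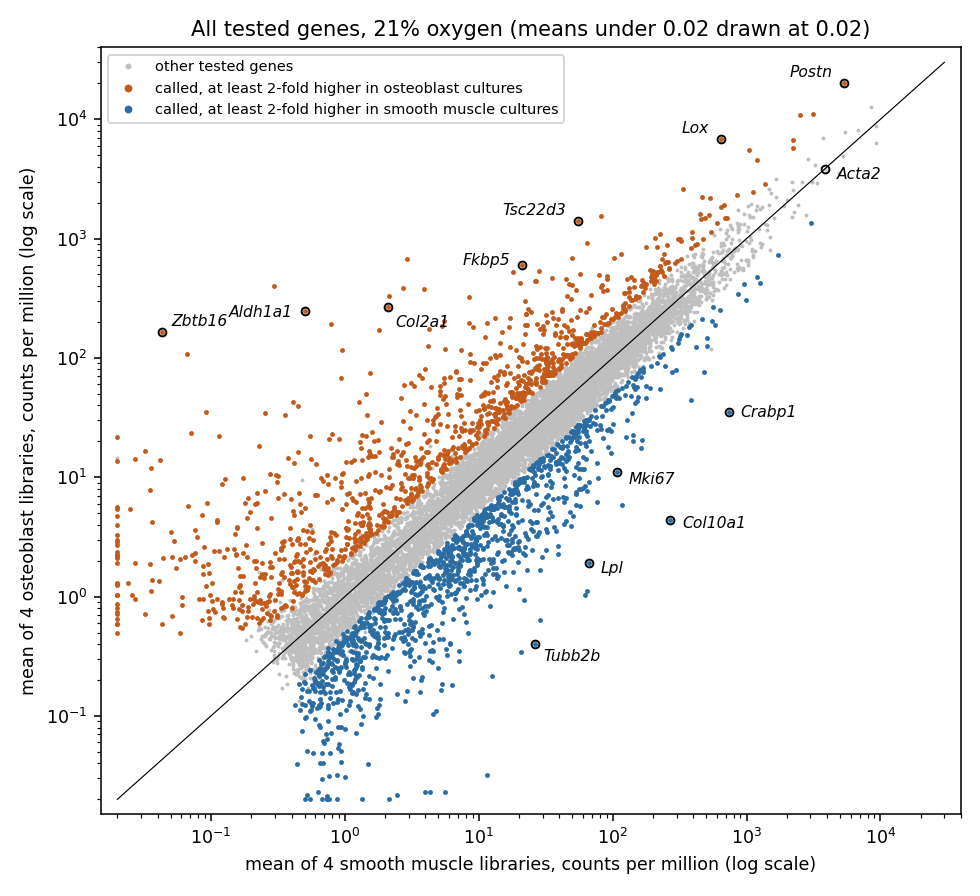
Mean level of each of the 14573 tested genes in the 4 osteoblast libraries (y axis) against the 4 smooth muscle libraries (x axis), both in CPM on log scales (means under 0.02 drawn at 0.02). Orange marks the 1131 genes called and at least 2-fold higher in osteoblast cultures, blue the 1237 called and at least 2-fold higher in smooth muscle cultures, and grey the others. Acta2 lies on the line of equal levels, and Zbtb16 and Aldh1a1 lie farthest above it among the labelled genes.

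Osteoblast replicate 4 stood apart from the other osteoblast libraries. In it 178 genes were at least 4-fold above and 89 at least 4-fold below the median of the other 3, against 2 to 12 above and 7 to 21 below for each of the other 7 libraries. Its mean correlation with the other libraries of its group was 0.971, against 0.985 to 0.990 for the other 7 libraries. The first principal component separated the groups (90.7% of variance), and the second (5.88%) separated this library, at 26.6, from the other osteoblast libraries, at -11.0 to -7.96. Without it 8852 genes were called, 7136 of the 7249 were called again in the same direction (98.4%) and none in the opposite one. Of the 2368 genes called with at least 2-fold change, 2186 passed both criteria again without it, 182 did not, and 384 others did. Leaving out any other single library kept 87.1% to 91.1% of the called genes in the same direction. Many of the counts and values below are therefore also given without replicate 4. Of the 14828 genes tested in that fit, 4436 were called higher in osteoblast and 4416 higher in smooth muscle cultures.

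The next genes were selected among called genes with no overlap between the groups and at least 10 counts on average in both. Of them, 8 of those with the largest rise in osteoblast cultures are Col2a1, described with the cartilage genes, and the 7 that follow. Aldh1a1, which oxidises retinal to retinoic acid (19:20492715-20643465, GRCm38, identifier ENSMUSG00000053279), had 275, 266, 275 and 165 CPM in the osteoblast and 0.654, 0.447, 0.207 and 0.698 CPM in the smooth muscle libraries. All 4 osteoblast values lay far above the smooth muscle values, and replicate 4 was the lowest of them. The difference was 487-fold, with log2 fold change 8.93 ± 0.30, adjusted p = 4.74e-08. Its relative Aldh1a7 was 232-fold higher (679 ± 179.5 against 2.92 ± 0.202 CPM). Fam107a, an actin-associated stress-response gene, was 238-fold higher (191 ± 40.1 against 0.792 ± 0.363 CPM) and the ferritin receptor Scara5 was 153-fold higher (332 ± 93.3 against 2.15 ± 0.914 CPM). Cpm, a membrane carboxypeptidase, was 142-fold higher, Ism1, a secreted protein, 121-fold and the sulfotransferase Sult1a1 103-fold.

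Among genes near absence in smooth muscle cultures, Hif3a, a member of the hypoxia-inducible factor family, had 112, 116, 113 and 89.2 CPM in the osteoblast and 0, 0.16, 0.104 and 0 CPM in the smooth muscle libraries. It was at or near 0 in every smooth muscle library and far higher in every osteoblast library. The fit over the 8 smooth muscle counts gave log2 fold change 10.52 ± 0.31, adjusted p = 1.22e-08, and a log2 fold change of 11.39 for Hif3a without smooth muscle replicate 2, so its size is imprecise. Genes near absence were counted among called genes with no overlap between the groups, predicted genes and clone names aside. Of these, 17 with at least 10 CPM in osteoblast cultures averaged under 10 counts in the smooth muscle libraries, and 3 showed the reverse. Hif3a was chosen among the 17, so its separation follows from the choice.

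In the other direction, the beta-tubulin Tubb2b had 0.329, 0.279, 0.28 and 0.726 CPM in the osteoblast and 26.9, 29.7, 29 and 19.8 CPM in the smooth muscle libraries, which is 63.6-fold lower in osteoblast cultures (log2 fold change -5.99 ± 0.27, adjusted p = 9.77e-08). Il1rl1, the interleukin-33 receptor, was 59.9-fold lower (1.03 ± 0.284 against 62.4 ± 13.5 CPM) and Gfra1, a receptor for the neurotrophic factor GDNF, 57-fold lower (1.12 ± 0.272 against 64.6 ± 13.7 CPM). Lpl, lipoprotein lipase, was 34.6-fold lower (1.92 ± 0.865 against 66.3 ± 6.82 CPM), Olfml2a, a secreted matrix protein, 46-fold and the potassium channel Kcnk3 22.9-fold. The log2 fold change of Olfml2a was -5.52 in the main fit, -6.55 under limma-voom and -5.08 without osteoblast replicate 4. Crabp1, which binds retinoic acid in the cytosol, had 41.8, 44.4, 46.2 and 9.58 CPM in the osteoblast and 674, 681, 750.0 and 860.1 CPM in the smooth muscle libraries. It was 20.9-fold lower in osteoblast cultures, with log2 fold change -4.39 ± 0.46, adjusted p = 8.51e-05. The 3 genes that met the same conditions near absence in osteoblast cultures were Fgl2 (0.345 ± 0.148 against 20.5 ± 2.57 CPM), Doc2b (0.214 ± 0.138 against 12.6 ± 1.24 CPM) and Ednrb, the endothelin receptor type B, whose osteoblast libraries together held 3 counts (0.0322 ± 0.0399 against 11.5 ± 0.655 CPM).

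By absolute level, the 8 genes selected as gaining most in osteoblast cultures all encode matrix proteins or a matrix enzyme. Postn, or periostin, a matricellular protein of bone surfaces and ligaments, had 22590, 22700, 21210 and 14560 CPM in the osteoblast and 5176, 5555, 5646 and 4924 CPM in the smooth muscle libraries. Its level was 3.81-fold higher, with log2 fold change 1.93 ± 0.14, adjusted p = 2.18e-06. Thbs1, thrombospondin 1, had 10520, 10720, 10900 and 10940 CPM in the osteoblast and 2512, 2351, 2372 and 2783 CPM in the smooth muscle libraries, and was 4.3-fold higher with log2 fold change 2.10 ± 0.08, adjusted p = 2.84e-08. Osteoblast replicate 4 was the lowest of its group for periostin, whereas the 4 osteoblast values of thrombospondin lay close together (SD 194 CPM). Lox, the enzyme that cross-links collagen and elastin, was 10.6-fold higher (6824 ± 634 against 643 ± 44.5 CPM). Col12a1, a fibril-associated collagen, was 3.54-fold higher (11070 ± 2069 against 3127 ± 242 CPM), and Tnn, tenascin N, 5.3-fold (5498 ± 868 against 1037 ± 192 CPM). Ogn, Sparc and Col1a2 were 3.02-fold, 2.59-fold and 1.48-fold higher. The genes that lost most by level were Eef1a1 (6333 ± 538 against 9308 ± 404 CPM), Tpt1 (1339 ± 106 against 3024 ± 190.1 CPM), Eef2 (3551 ± 577 against 4874 ± 109.5 CPM) and Hsp90ab1 (1575 ± 33.5 against 2787 ± 61.1 CPM), followed by Tubb5, Sox4, Cpe and Crabp1. Of these, Eef1a1 and Eef2 serve translation and Hsp90ab1 protein folding. Eef1a1, Tpt1 and some translation genes have near-identical pseudogene copies, so their counts may be split between loci.

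The label of the osteoblast cultures was checked against 32 genes of osteoblast regulation, matrix and mineralisation, of which 25 were tested. Of these, 11 were higher in osteoblast cultures and 6 in smooth muscle cultures, and the median log2 fold change was 0.51, against -0.000487 over all tested genes. Without replicate 4 the counts were 10 and 8 and the median 0.02, and with scaling by library size alone they were 11 and 10 and the median 0.31. DESeq2 called 8 and 6. Runx2, the master regulator of the lineage, had 70.1, 81.4, 80.4 and 68.1 CPM in the osteoblast and 79.8, 86.3, 76.2 and 88.5 CPM in the smooth muscle libraries, which overlap, and was not called (log2 fold change -0.14 ± 0.08, adjusted p = 0.172). With scaling by library size alone Runx2 was called lower in osteoblast cultures (log2 fold change -0.36, adjusted p = 0.00286). Sp7, or osterix, which acts downstream of Runx2, had 1.35, 0.79, 1.6 and 54.1 CPM in the osteoblast and 0.145, 0.383, 0 and 0.977 CPM in the smooth muscle libraries. It was called with replicate 4 (log2 fold change 5.25 ± 1.77, adjusted p = 0.0397) and not without it (log2 fold change 1.73, adjusted p = 0.0564). The call for Sp7 was also lost without smooth muscle replicate 1, 2 or 3 (adjusted p = 0.0881, 0.0782 and 0.0814) and under limma-voom (adjusted p = 0.187), and its log2 fold change was 6.29 without smooth muscle replicate 4. Alpl, the alkaline phosphatase needed for mineralisation, had 1.89, 2.98, 1.64 and 47.7 CPM in the osteoblast and 2.94, 2.97, 3.21 and 5.83 CPM in the smooth muscle libraries. It was not called over all 8 libraries (log2 fold change 1.86 ± 1.14, adjusted p = 0.213), and without replicate 4 it was lower in osteoblast cultures (log2 fold change -0.79, adjusted p = 0.0194).

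Among matrix genes of bone, Spp1, osteopontin, had 1184, 1141, 1156 and 1296 CPM in the osteoblast and 807, 708, 811 and 782 CPM in the smooth muscle libraries, which do not overlap, and was called (log2 fold change 0.62 ± 0.07, adjusted p = 6.61e-05). Ibsp, bone sialoprotein, had 0.452, 0.558, 0.559 and 3.82 CPM in the osteoblast and 0, 0.0959, 0.0691 and 0 CPM in the smooth muscle libraries and was called (log2 fold change 4.85 ± 1.09, adjusted p = 0.00465), with log2 fold change 3.48, adjusted p = 3.68e-04 without replicate 4 and a log2 fold change of 5.59 without smooth muscle replicate 2. Its level was thus under 4 CPM in every library. Bglap, osteocalcin, was too low to test, at 0 to 0.535 CPM in the osteoblast libraries. Col1a1, the main bone collagen chain, had 6652, 6684, 6668 and 11060 CPM in the osteoblast and 5254, 5108, 4363 and 7023 CPM in the smooth muscle libraries and was not called (log2 fold change 0.51 ± 0.20, adjusted p = 0.0572). Col1a1 was called higher in osteoblast cultures by DESeq2 (adjusted p = 0.0176), in the fit on all 16 libraries at 21% oxygen (0.0111) and without smooth muscle replicate 4 (0.0243). Omd, osteomodulin, was higher (373 ± 96.9 against 90.2 ± 10.6 CPM, log2 fold change 2.05 ± 0.17, adjusted p = 8.34e-06), and so was Smpd3, a sphingomyelinase needed for bone mineralisation (29.2 ± 6.19 against 1.87 ± 0.998 CPM). The 6 members that were higher in smooth muscle cultures were Dmp1, Phex, Enpp1, Ank, Tnfrsf11b and Bmp3. Bmp3, a BMP family member that restrains bone formation, showed the largest such difference, with 7.72, 7.16, 7.79 and 0.726 CPM in the osteoblast and 124, 130.0, 130.3 and 84.2 CPM in the smooth muscle libraries (log2 fold change -4.33 ± 0.53, adjusted p = 2.51e-04).

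The label of the smooth muscle cultures was checked in the same way. Of 30 genes of the contractile apparatus and its regulators, 27 were tested, and 10 were higher in osteoblast (37%) and 4 in smooth muscle cultures (14.8%). The shares over all tested genes were 25.3% and 24.4%, and the median log2 fold change of the list was 0.07. Without replicate 4 these counts were 11 and 9 and the median was -0.05, and with scaling by library size alone they were 7 and 7. Over all 8 libraries Acta2, Tagln, Cnn1 and Myh11, the defining contractile genes, were not called. Acta2, smooth muscle alpha-actin, had 3472, 3333, 3497 and 4962 CPM in the osteoblast and 4093, 3736, 4068 and 3606 CPM in the smooth muscle libraries (log2 fold change -0.02 ± 0.13, adjusted p = 0.897). Tagln, transgelin, had 291, 271, 285 and 602 CPM in the osteoblast and 356, 324, 353 and 362 CPM in the smooth muscle libraries (log2 fold change 0.05 ± 0.25, adjusted p = 0.87). In both genes replicate 4 was the highest of all 8 libraries while the other 3 osteoblast libraries lay below all smooth muscle libraries. Without replicate 4, both were called lower in osteoblast cultures, Acta2 with log2 fold change -0.17, adjusted p = 0.0101 and Tagln with log2 fold change -0.30, adjusted p = 4.50e-05. Cnn1, calponin 1, and Myh11, smooth muscle myosin heavy chain, were low in both groups (8.18 ± 4.38 against 6.9 ± 1.3 CPM for Cnn1, 2.15 ± 0.475 against 1.85 ± 0.914 CPM for Myh11) and were called neither with nor without replicate 4. The calls for Acta2 and Tagln thus depended on replicate 4, and Sp7, Alpl, Ibsp and Bglap were under 3 CPM in osteoblast replicates 1 to 3, so both names are used here for the protocols.

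Myocd, which encodes myocardin (identifier ENSMUSG00000020542), was the member with the largest difference and was higher in osteoblast cultures. It had 8.26, 5.76, 6.03 and 3.97 CPM in the osteoblast and 0.254, 0.224, 0.276 and 0.105 CPM in the smooth muscle libraries. All osteoblast values exceeded all smooth muscle values by far, and the difference was 27.4-fold (log2 fold change 4.78 ± 0.33, adjusted p = 1.52e-06). Mrtfa, a myocardin-related coactivator, was also higher in osteoblast cultures (210.3 ± 11.4 against 112 ± 13.2 CPM, log2 fold change 0.91 ± 0.09, adjusted p = 1.63e-05), whereas its relative Mrtfb and serum response factor itself, Srf, were lower (log2 fold change -0.39 ± 0.09, adjusted p = 0.00395 for Mrtfb, log2 fold change -0.25 ± 0.07, adjusted p = 0.0125 for Srf). Smtn, smoothelin, was 2.15-fold higher in osteoblast cultures (569 ± 48 against 264 ± 13.9 CPM), as was Lmod1, leiomodin 1, at 1.77-fold (105 ± 11.3 against 59 ± 2.43 CPM). Cnn2, calponin 2, was 1.86-fold lower (805 ± 88.5 against 1501 ± 58.8 CPM).

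The binding site of serum response factor, the CArG box, is shown in the promoter of the regulatory light chain gene Myl9, a contractile gene that was not called (462, 460.0, 466 and 596 CPM in the osteoblast and 574, 550.4, 612 and 526 CPM in the smooth muscle libraries) and was lower in osteoblast cultures without replicate 4 (log2 fold change -0.29, adjusted p = 1.18e-04) and, for Myl9, with scaling by library size alone (adjusted p = 0.00702). The RefSeq promoter (GRCm38.p6, 2:156775214-156775513, plus strand, from 250 bases before to 50 bases after the start) holds 1 match, 161 bases before the start, in capitals below. Promoters of 25 of the 30 list genes were in the RefSeq table, and 4 of them (16%) held a CArG box on either strand, against 1.8% of 27025 genes. Apart from Myl9 these were Cnn2, Srf and Vcl.
Myl9: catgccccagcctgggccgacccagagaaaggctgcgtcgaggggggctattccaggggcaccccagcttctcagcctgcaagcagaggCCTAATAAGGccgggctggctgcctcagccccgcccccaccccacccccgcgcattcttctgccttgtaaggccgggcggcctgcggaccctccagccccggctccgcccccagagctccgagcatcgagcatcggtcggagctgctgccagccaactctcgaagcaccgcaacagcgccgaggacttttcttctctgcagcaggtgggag

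**Figure D2:**
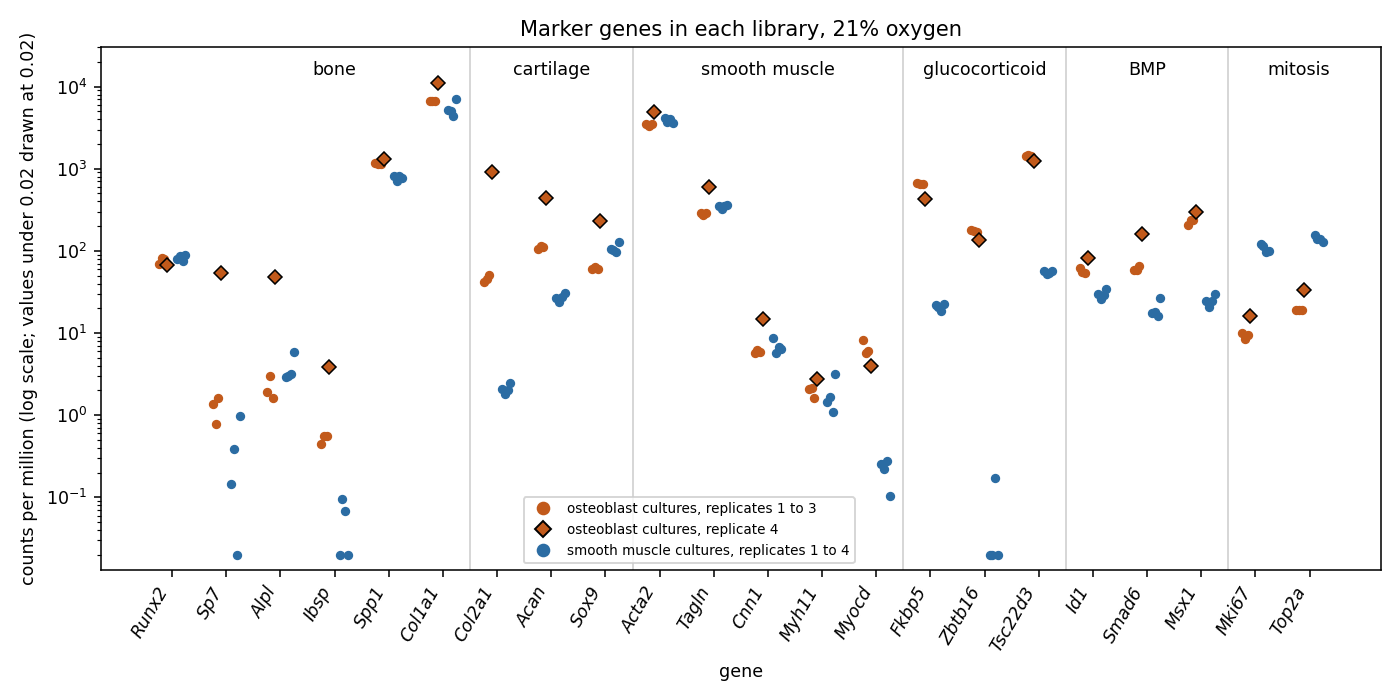
CPM (log scale, values under 0.02 drawn at 0.02) of 22 marker genes in each library, with osteoblast replicates 1 to 3 as orange circles, osteoblast replicate 4 as outlined diamonds and smooth muscle replicates as blue circles. Acta2, Tagln and Runx2 overlap between the groups, Fkbp5, Zbtb16 and Msx1 do not, and the diamond lies well above the other osteoblast points for Sp7, Alpl and Col2a1.

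Glucocorticoid receptor targets were higher in osteoblast cultures. Of 26 listed genes 24 were tested, 21 were higher in osteoblast cultures and 2 in smooth muscle cultures, and the median log2 fold change was 2.68. The counts were 22 and 2 without replicate 4 and 21 and 2 with scaling by library size alone. Zbtb16 (identifier ENSMUSG00000066687), which encodes a zinc-finger repressor, had 179.5, 174, 170.5 and 134 CPM in the osteoblast and 0, 0, 0.173 and 0 CPM in the smooth muscle libraries. The smooth muscle libraries held 5 counts of it, all in replicate 3. The fit gave log2 fold change 11.75 ± 0.36, adjusted p = 2.10e-08, and a log2 fold change of 15.08 for Zbtb16 without that library, so its size is not determined by these counts. Fkbp5, a chaperone that dampens receptor activity, had 663, 644, 657 and 429 CPM in the osteoblast and 21.6, 21, 18.5 and 22.5 CPM in the smooth muscle libraries and was 28.6-fold higher (log2 fold change 4.84 ± 0.16, adjusted p = 1.45e-08). Tsc22d3, or GILZ, an anti-inflammatory mediator, had 1445, 1457, 1432 and 1258 CPM in the osteoblast and 56.9, 52.7, 53.7 and 57.6 CPM in the smooth muscle libraries and was 25.3-fold higher (log2 fold change 4.66 ± 0.08, adjusted p = 8.31e-10). These 3 genes show no overlap between groups, with replicate 4 lowest of the osteoblast libraries in each.

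Among the other targets, Errfi1, an inhibitor of the EGF receptor, was 16.7-fold higher (439 ± 68.9 against 26.2 ± 1.15 CPM), Pdk4, which restrains pyruvate oxidation, 8.9-fold (508 ± 48.5 against 57 ± 1.25 CPM), and the clock gene Per1 4.32-fold (159.7 ± 8.24 against 37 ± 2.94 CPM). The metal-binding proteins Mt1 and Mt2 were 6.45-fold and 13.8-fold higher. Lcn2, a secreted lipocalin, was at 14.2 ± 0.412 against 0.0273 ± 0.0545 CPM, with 3 counts in all in the smooth muscle libraries. Dusp1 was the member that was not called (log2 fold change 0.66 ± 0.28, adjusted p = 0.0814), although DESeq2 called Dusp1 (adjusted p = 0.0291), and it was higher in osteoblast cultures without replicate 4 (log2 fold change 0.91, adjusted p = 7.78e-09). The 2 members lower in osteoblast cultures were Angptl4 (0.438 ± 0.287 against 5.01 ± 0.791 CPM) and the receptor gene itself, Nr3c1, which had 149, 146, 152 and 139 CPM in the osteoblast and 201, 210.4, 213 and 203 CPM in the smooth muscle libraries (log2 fold change -0.50 ± 0.06, adjusted p = 5.02e-05). In replicate 4, none of the 23 listed genes of at least 1 CPM was 2-fold or more above the other osteoblast libraries. In the same library 2 were 2-fold or more below them (lowest ratio 0.364), and the median ratio was 0.772.

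The kinase gene Sgk1 and Mt1 are shown because their promoters hold the palindrome bound by the receptor, GNACANNNTGTNC, which reads the same on both strands. Sgk1 had 732, 729, 742 and 557 CPM in the osteoblast and 108, 100.4, 102 and 101 CPM in the smooth muscle libraries (log2 fold change 2.75 ± 0.10, adjusted p = 2.28e-08), and Mt1 had 657, 684, 694 and 921 CPM in the osteoblast and 119, 121, 141 and 76.2 CPM in the smooth muscle libraries (log2 fold change 2.69 ± 0.19, adjusted p = 3.78e-06). In RefSeq promoters of the same length, 0.5% of 27025 genes hold a match, and 3 of the 22 list genes found in the table do (13.6%), the other one being Map3k6. The match is in capitals, 188 bases before the start in Sgk1 (10:21993640-21993939, plus strand) and 94 bases before it in Mt1 (8:94178839-94179138, plus strand). Fkbp5 and Tsc22d3 have no match in this window, which says nothing of sites elsewhere.
Sgk1: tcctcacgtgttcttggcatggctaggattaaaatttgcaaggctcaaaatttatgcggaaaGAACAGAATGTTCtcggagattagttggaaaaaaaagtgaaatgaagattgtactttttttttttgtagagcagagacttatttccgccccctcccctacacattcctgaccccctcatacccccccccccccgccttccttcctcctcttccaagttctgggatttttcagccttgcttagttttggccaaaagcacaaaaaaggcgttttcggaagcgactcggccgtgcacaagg
Mt1: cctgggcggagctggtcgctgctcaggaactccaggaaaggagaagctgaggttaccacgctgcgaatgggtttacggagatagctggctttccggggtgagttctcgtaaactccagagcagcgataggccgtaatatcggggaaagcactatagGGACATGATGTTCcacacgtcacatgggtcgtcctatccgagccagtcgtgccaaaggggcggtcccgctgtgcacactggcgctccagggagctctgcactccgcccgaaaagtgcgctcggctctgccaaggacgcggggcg

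BMP feedback and target genes were more often higher than lower in osteoblast cultures, with replicate 4 above the others. Of 23 tested members, 13 were higher and 2 lower, with a median log2 fold change of 1.19, or 13 and 3 with a median of 0.94 without replicate 4. DESeq2, which gives no adjusted p to genes with an outlying count, called 9 and 2, and limma-voom 11 and 2. In replicate 4, 15 of the 22 members of at least 1 CPM were 2-fold or more above the mean of the other 3 libraries, and the median ratio was 2.47. Id1, an inhibitor of DNA-binding proteins and a direct SMAD target, had 61.7, 54.6, 54.2 and 82.7 CPM in the osteoblast and 29.6, 25.8, 29.2 and 34.4 CPM in the smooth muscle libraries (log2 fold change 1.09 ± 0.14, adjusted p = 1.63e-04). Its relatives Id2, Id3 and Id4 were not called (adjusted p = 0.23, 0.193 and 0.572), and without replicate 4 Id4 was lower in osteoblast cultures (log2 fold change -0.23, adjusted p = 0.00272). Smad6, an inhibitory SMAD, had 57.8, 58, 65.6 and 158 CPM in the osteoblast and 17.7, 18.1, 16.3 and 26.5 CPM in the smooth muscle libraries and was 4.32-fold higher (log2 fold change 2.11 ± 0.37, adjusted p = 0.00155), with log2 fold change 1.62, adjusted p = 7.14e-06 without replicate 4. The transcription factor gene Msx1 had 208, 236, 236 and 294 CPM in the osteoblast and 24.3, 20.6, 24.3 and 29.9 CPM in the smooth muscle libraries, with 9.84-fold higher levels (log2 fold change 3.30 ± 0.14, adjusted p = 7.07e-08).

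Secreted BMP antagonists differed from each other. Nog, noggin, had 1.15, 1.53, 2.08 and 89.5 CPM in the osteoblast and 0.145, 0, 0.0691 and 0.0698 CPM in the smooth muscle libraries, and its log2 fold change was 8.33 with replicate 4 and 4.44 without it, called both times (adjusted p = 0.0186 and 6.85e-07). Under limma-voom Nog was not called (adjusted p = 0.166). Fst, follistatin, was 5.26-fold higher (85.1 ± 45.6 against 16.2 ± 3.94 CPM), Grem1 was not called (757 ± 220.4 against 764 ± 168 CPM, adjusted p = 0.967) and Chrdl1 was 2.54-fold lower (48.9 ± 3.52 against 124 ± 21.6 CPM). The pseudoreceptor gene Bambi had 28.9, 27.7, 27.1 and 123 CPM in the osteoblast and 11.2, 10.8, 11 and 11.3 CPM in the smooth muscle libraries (log2 fold change 2.22 ± 0.54, adjusted p = 0.00943), with log2 fold change 1.33, adjusted p = 3.12e-11 without replicate 4. Hey1, a target of both BMP and Notch signals, had 9.73, 10.9, 9.31 and 104 CPM in the osteoblast and 0.509, 0.32, 0.38 and 0.209 CPM in the smooth muscle libraries (log2 fold change 6.56 ± 1.23, adjusted p = 0.00294), and without replicate 4 its log2 fold change was 4.81. Under limma-voom Hey1 was not called (adjusted p = 0.0586).

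Most cartilage genes were higher in replicate 4 than in the other osteoblast libraries. Of 15 tested members 9 were higher in osteoblast cultures and 1 was lower (median 1.51), and without replicate 4 these counts were 9 and 3 (median 0.97). With all 8 libraries, limma-voom called 5 higher and 1 lower, and DESeq2, with no adjusted p for the other 5, 4 and 1. In replicate 4, 11 of the 14 members of at least 1 CPM were 2-fold or more above the other osteoblast libraries, with a median ratio of 4.76. Col2a1, the main cartilage collagen, had 41.9, 44.9, 51.4 and 924 CPM in the osteoblast and 2.07, 1.79, 2 and 2.48 CPM in the smooth muscle libraries. Replicates 1 to 3 were close together and far above the smooth muscle libraries, and replicate 4 was 20.1 times their mean. The log2 fold change was 6.99 ± 1.44 with it and 4.47 without it (adjusted p = 0.00458 and 1.77e-17). Under limma-voom neither Col2a1 (adjusted p = 0.0531) nor Col9a1 (adjusted p = 0.154) was called. Acan, aggrecan, had 105, 116, 112 and 441 CPM in the osteoblast and 27, 23.9, 27.4 and 31 CPM in the smooth muscle libraries (log2 fold change 2.83 ± 0.52, adjusted p = 0.00242), with log2 fold change 2.03, adjusted p = 2.57e-15 without replicate 4. Col9a1 had 3.41, 5.39, 6.23 and 126 CPM in the osteoblast and 0, 0.192, 0.138 and 0.0349 CPM in the smooth muscle libraries, and its log2 fold change moved from 8.49 to 5.67 without replicate 4 and to 9.12 without smooth muscle replicate 2. Sox9, the regulator of cartilage genes, was not called (log2 fold change -0.06 ± 0.46, adjusted p = 0.923) and was lower in osteoblast cultures without replicate 4 (log2 fold change -0.81, adjusted p = 6.51e-08). Col10a1, the collagen of hypertrophic cartilage, went the other way, with 1.93, 2.14, 2.16 and 11.2 CPM in the osteoblast and 324, 298, 297 and 161 CPM in the smooth muscle libraries (log2 fold change -5.93 ± 0.64, adjusted p = 1.37e-04), and its log2 fold change was -7.02 without replicate 4.

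**Figure D3:**
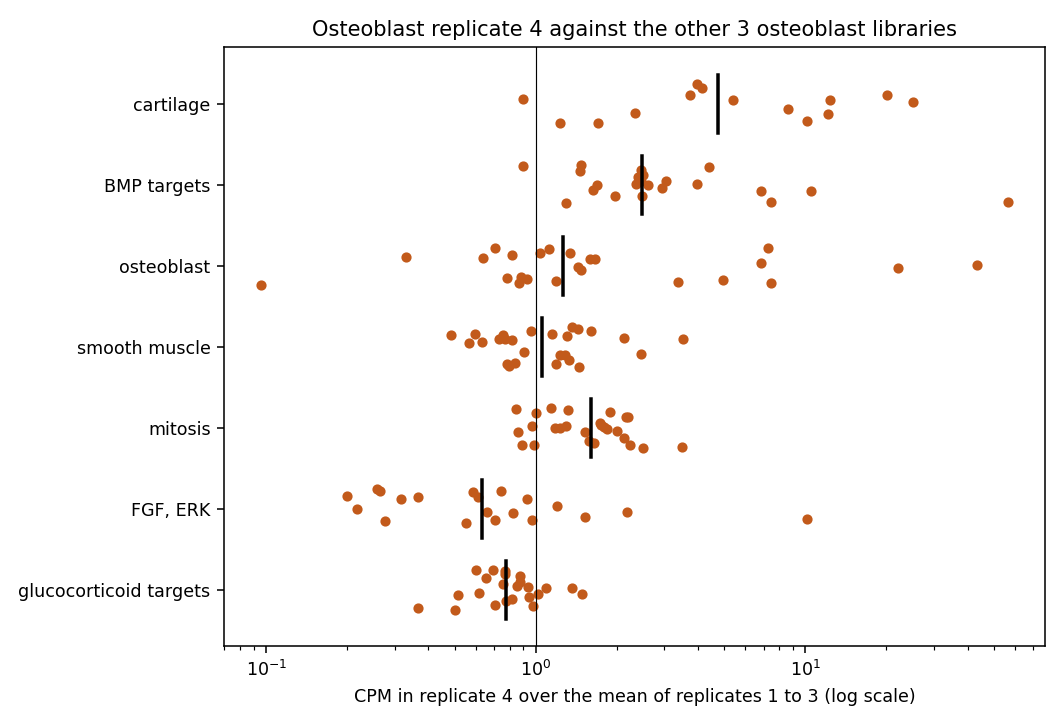
Level in osteoblast replicate 4 divided by the mean of osteoblast replicates 1 to 3 (log scale) for tested members of 7 gene lists with at least 1 CPM, one point per gene, with the median as a black bar. The median ratio is 4.76 for cartilage genes, 2.47 for BMP targets and 0.772 for glucocorticoid targets.

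Cell cycle genes are given as 3 lists, for mitosis, DNA replication and the control of entry into the cycle. All 26 tested mitosis genes were called lower, with log2 fold changes of -3.78 to -1.71 and a median of -3.07, and the count was 26 without replicate 4 and with library size scaling too. Mki67, the proliferation marker Ki-67 (identifier ENSMUSG00000031004), had 10.0, 8.37, 9.55 and 16.1 CPM in the osteoblast and 121, 114, 97.9 and 100.4 CPM in the smooth muscle libraries and was 9.79-fold lower (log2 fold change -3.29 ± 0.19, adjusted p = 1.03e-06). Top2a, the topoisomerase of dividing cells, had 19.1, 19.3, 19.2 and 33.5 CPM in the osteoblast and 158, 138, 140.5 and 127 CPM in the smooth muscle libraries (log2 fold change -2.63 ± 0.19, adjusted p = 4.26e-06). Replicate 4 was the highest osteoblast library for both genes, yet far below every smooth muscle library. Of 26 tested DNA replication genes, 18 were lower and 2, Rrm1 and E2f1, higher in osteoblast cultures (median -0.83), and without replicate 4 the counts were 21 and 2 (median -1.23). With scaling by library size alone they were 20 and 1, and E2f1 was not called (adjusted p = 0.112). Mcm5, a helicase subunit, had 4.81, 4.97, 4.51 and 22.8 CPM in the osteoblast and 36.6, 28.8, 33.5 and 37.5 CPM in the smooth muscle libraries (log2 fold change -1.87 ± 0.53, adjusted p = 0.0188, and -2.83 without replicate 4), and with no filter on low counts Mcm5 was not called (adjusted p = 0.0654). Of 11 tested inhibitors of cyclin-dependent kinases, D cyclins and retinoblastoma family genes, 5 were higher and 2 lower (median 0.02), or 3 and 4 with scaling by library size alone. The inhibitor genes Cdkn1a and Cdkn1c were 3.33-fold and 2.23-fold higher and Cdkn2c 3.64-fold lower. The cyclin genes Ccnd2 and Ccnd3 were higher (log2 fold change 0.32 ± 0.07, adjusted p = 0.00288 for Ccnd2, log2 fold change 0.64 ± 0.07, adjusted p = 2.62e-05 for Ccnd3), and Rbl2 was higher and Rbl1 lower. With scaling by library size alone Ccnd2 and Rbl2 were not called (adjusted p = 0.213 and 0.124). Cdkn1a also stands in the glucocorticoid list.

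Promoters of 4 mitosis genes are shown because mitosis genes share 2 known elements that few other promoters carry together, the cell cycle genes homology region (CHR, searched as TTTGAA) and the CCAAT box (searched as CCAAT), on both strands. Of the 21 mitosis genes in the RefSeq table, 16 held a CHR (76.2%), 18 a CCAAT box (85.7%) and 15 both, against 20.2%, 41.1% and 9.0% of 27025 genes. The 4 genes, chosen with their values known, were the kinase gene Cdk1 (11.4 ± 3.89 against 39.1 ± 2.97 CPM), the cyclin gene Ccnb2 (2.21 ± 0.359 against 22.2 ± 2.12 CPM), Mki67 and Ube2c, a ubiquitin-conjugating enzyme of mitotic exit (2.14 ± 0.874 against 29.6 ± 1.16 CPM). Capitals mark both elements, and in Ube2c 2 CCAAT matches on opposite strands overlap. Positions are 7:135716330-135716629 (minus strand) for Mki67, 9:70421505-70421804 (minus) for Ccnb2, 10:69352863-69353162 (minus) for Cdk1 and 2:164769679-164769978 (plus) for Ube2c.
Mki67: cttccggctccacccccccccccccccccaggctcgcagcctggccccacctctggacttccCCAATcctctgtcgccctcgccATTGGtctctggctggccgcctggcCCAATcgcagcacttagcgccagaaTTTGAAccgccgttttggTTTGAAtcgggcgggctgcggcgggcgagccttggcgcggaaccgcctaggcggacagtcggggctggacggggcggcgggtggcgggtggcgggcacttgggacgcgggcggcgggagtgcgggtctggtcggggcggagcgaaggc
Ccnb2: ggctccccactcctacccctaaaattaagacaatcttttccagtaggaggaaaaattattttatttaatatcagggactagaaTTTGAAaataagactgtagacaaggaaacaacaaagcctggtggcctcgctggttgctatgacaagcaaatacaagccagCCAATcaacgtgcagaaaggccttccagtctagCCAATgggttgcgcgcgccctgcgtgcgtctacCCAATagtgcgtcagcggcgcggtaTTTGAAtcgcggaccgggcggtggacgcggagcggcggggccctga
Cdk1: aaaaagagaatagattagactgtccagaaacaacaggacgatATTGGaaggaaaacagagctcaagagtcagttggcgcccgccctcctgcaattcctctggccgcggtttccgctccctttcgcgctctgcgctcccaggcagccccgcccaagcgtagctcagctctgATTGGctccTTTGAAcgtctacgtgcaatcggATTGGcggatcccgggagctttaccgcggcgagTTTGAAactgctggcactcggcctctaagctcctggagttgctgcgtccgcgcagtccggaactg
Ube2c: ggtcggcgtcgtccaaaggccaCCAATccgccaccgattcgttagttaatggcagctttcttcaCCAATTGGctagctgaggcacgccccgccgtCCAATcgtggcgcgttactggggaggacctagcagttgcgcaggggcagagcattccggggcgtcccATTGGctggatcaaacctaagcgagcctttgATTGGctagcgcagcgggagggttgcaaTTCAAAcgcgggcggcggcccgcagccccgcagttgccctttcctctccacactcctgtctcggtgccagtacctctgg

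Mki67 holds 2 CHR and 3 CCAAT matches, Ccnb2 2 and 3, Cdk1 2 and 3 and Ube2c 1 and 6. A match is a run of letters and not evidence of binding in these cells.

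Matrix genes are given by class. Matricellular proteins, which bind matrix and cell receptors, were higher in 16 and lower in 2 of 20 tested members (median 1.34), and in 16 and 3 without replicate 4. Tnc, tenascin C, was 7.79-fold higher (2610 ± 229 against 335 ± 21.5 CPM), Ccn2 14.3-fold (915 ± 245 against 64 ± 4.05 CPM) and Mgp, an inhibitor of calcification, 4.85-fold (335 ± 23.9 against 69 ± 3.25 CPM). Spon2 and Ccn3 were the 2 lower members (6.67 ± 1.37 against 45.1 ± 5.17 CPM for Spon2, 58.5 ± 13.8 against 177 ± 21 CPM for Ccn3). Tgfbi was not called (log2 fold change -0.95 ± 0.86, adjusted p = 0.397), with 31.2, 32.6, 35.5 and 382 CPM in the osteoblast and 237, 255, 239 and 202 CPM in the smooth muscle libraries, and without replicate 4 it was lower in osteoblast cultures (log2 fold change -2.81, adjusted p = 1.04e-15). Fibrillar collagens and their processing enzymes were higher in 16 and lower in 2 of 23 members (median 0.67), including Col3a1 (4654 ± 169 against 2867 ± 139.6 CPM), Col5a1 (2312 ± 70.1 against 848 ± 121 CPM) and the hydroxylase P4ha2 (119 ± 71.5 against 27.1 ± 2.16 CPM). Loxl1 and Adamts14 were lower, Adamts14 with -1.73 on the log2 scale and -2.44 without replicate 4. Small leucine-rich proteoglycans were higher in 6 and lower in 2 of 13 (7 and 3 without replicate 4), with Aspn, asporin, at 4535 ± 366 against 1205 ± 91.8 CPM.

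Basement membrane genes split evenly, with 9 of 20 higher and 9 lower (median -0.12). The laminin chain Lama2 was 18.1-fold higher (74.1, 84.4, 75.8 and 38.5 CPM in the osteoblast and 3.56, 3.71, 4.52 and 3.21 CPM in the smooth muscle libraries) and Lamb1 3.98-fold lower (139, 143, 144 and 78.8 CPM in the osteoblast and 502, 521, 474 and 513 CPM in the smooth muscle libraries), with no overlap in either. Elastic fibre genes were also divided, 6 higher and 6 lower of 17 (35.3% each), or 4 and 6 with scaling by library size alone. Elastin itself, Eln, was 11.5-fold higher (69.8 ± 20.5 against 6.05 ± 3.37 CPM), and the microfibril protein Mfap4 4.15-fold lower (13.2 ± 3.81 against 54.8 ± 14.3 CPM). Among proteases and their inhibitors 12 of 25 were higher and 3 lower, against 13 and 9 without replicate 4 and 11 and 5 with scaling by library size alone. Adamts1 and Timp3 were higher (2240 ± 291 against 468 ± 32.9 CPM for Adamts1, 886 ± 95.1 against 254 ± 9.31 CPM for Timp3), and Mmp3 lower (0.184 ± 0.19 against 5.32 ± 2.52 CPM). Mmp9, with 2 counts over the osteoblast libraries, both in replicate 4, was lower as well (0.0191 ± 0.0382 against 2.12 ± 0.901 CPM), by a counting ratio of 102 (95% counting interval 27.9 to 845). Among integrins and cadherins, 10 of 21 were higher (47.6%) and 7 lower (33.3%), against 25.3% and 24.4% of all tested genes. The collagen receptor chain Itga10 was 20.3-fold higher (80.5 ± 22.8 against 3.96 ± 0.374 CPM).

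**Figure D4:**
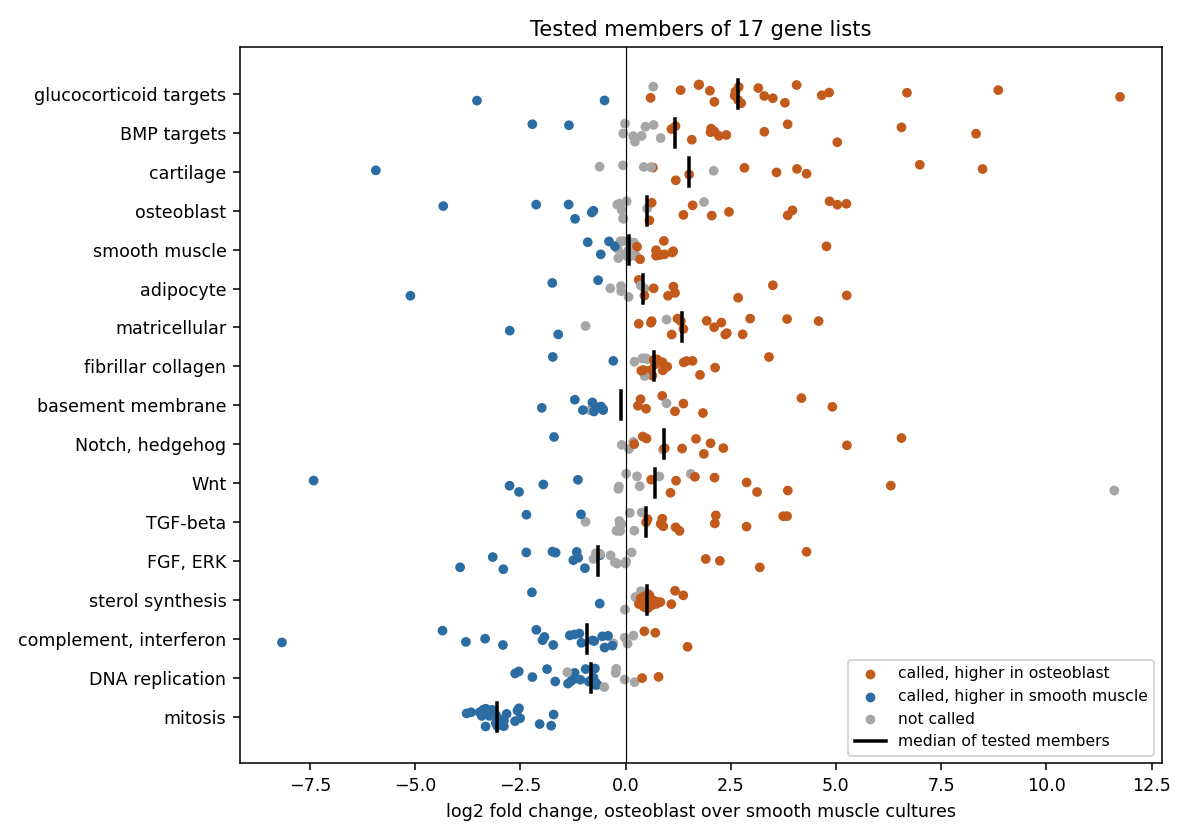
Log2 fold change of each tested member of 17 gene lists, osteoblast over smooth muscle cultures (x axis), coloured by call, with the median as a black bar. Glucocorticoid targets have a median of 2.68, mitosis genes a median of -3.07, and smooth muscle genes a median of 0.07.

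Other signalling pathways were described in the same way. FGF receptors and feedback genes of the ERK kinase were lower in 11 and higher in 4 of 24 tested members (median -0.66). Without replicate 4 these counts were 14 and 7 and the median was -0.43, and the median was -1.40 for replicate 4 alone against -0.51 to -0.41 for each other osteoblast library. Etv4 and Fosl1, transcription factors induced by ERK, were 15.3-fold and 8.92-fold lower (0.361 ± 0.166 against 5.68 ± 1.94 CPM and 0.816 ± 0.689 against 7.44 ± 1.25 CPM), with a log2 fold change of -3.16 for Fosl1, or -3.94 without replicate 4, while the receptor genes Fgfr2 and Fgfr3 were higher (844 ± 197 against 179 ± 9.34 CPM for Fgfr2, and 18.5, 17.7, 19.6 and 189 CPM in the osteoblast and 3.02, 3.39, 2.38 and 3.63 CPM in the smooth muscle libraries for Fgfr3). The log2 fold change of Fgfr3 was 4.30, or 2.58 without replicate 4. Among Notch and hedgehog genes 11 of 16 were higher and 1, the ligand gene Dll1, lower (median 0.91), or 9 and 2 with scaling by library size alone. Boc, a hedgehog coreceptor, had 281, 274, 261 and 483 CPM in the osteoblast and 6.11, 6.13, 6.42 and 15.2 CPM in the smooth muscle libraries (log2 fold change 5.26 ± 0.40, adjusted p = 1.13e-05), and Notch3 was 3.19-fold higher (103 ± 18.6 against 32.2 ± 4.86 CPM). Wnt genes were higher in 9 (40.9%) and lower in 5 (22.7%) of 22, against 25.3% and 24.4% of all tested genes. Without replicate 4 these counts were 14 and 5. The ligand gene Wnt4 was 7.34-fold higher (30.3 ± 13 against 4.13 ± 1.87 CPM). Wnt16 had 0, 0.093, 0 and 0 CPM in the osteoblast and 4.29, 4.79, 4.52 and 3.7 CPM in the smooth muscle libraries, so it was lower in osteoblast cultures, whose libraries held 2 counts in all, by a counting ratio of 211 (95% counting interval 58 to 1743). The antagonist gene Wif1 had 0.863, 1.16, 1.8 and 54.7 CPM in the osteoblast and 0, 0, 0 and 0 CPM in the smooth muscle libraries and was not called (adjusted p = 0.0608). Wif1 was called without replicate 4 (adjusted p = 4.88e-07), the library that holds most of its counts, and in the fit on 16 libraries (adjusted p = 0.00691).

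TGF-beta targets were higher in 12 and lower in 2 of 23 (median 0.49), or in 12 and 5 both without replicate 4 and with scaling by library size alone, with the feedback gene Skil 4.35-fold higher (163 ± 19.6 against 37.4 ± 1.74 CPM). YAP and TEAD targets were higher in 9 and lower in 3 of 20, against 12 and 7 without replicate 4 and 6 and 6 with scaling by library size alone. Calls over all genes moved in the same directions, from 3691 and 3558 to 4436 and 4416 without replicate 4. With library size alone they were 2313 and 5832. In the insulin-like growth factor system 7 of 18 were higher and 2 lower (median -0.0072), against 8 and 7 without replicate 4 and 7 and 5 with scaling by library size alone, with Igf1 (72.8 ± 15.1 against 15.5 ± 2.41 CPM) and Igfbp3 (133 ± 4.8 against 14.5 ± 0.927 CPM) higher and Igfbp4 (304 ± 99.8 against 986 ± 18.9 CPM) lower. H19, a growth-restraining imprinted RNA, had 33.4, 31.9, 34.3 and 376 CPM in the osteoblast and 579, 576, 552 and 480.5 CPM in the smooth muscle libraries and was called without replicate 4 (log2 fold change -4.04, adjusted p = 1.11e-19) but not with it (adjusted p = 0.0722). Over all 8 libraries DESeq2 and limma-voom called H19 lower (adjusted p = 0.0285 and 0.00707).

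Patterning genes of the face and neural crest were also listed. Of 27 tested homeobox and related factors 13 were higher (48.1%) and 7 lower (25.9%), or 10 and 9 with scaling by library size alone. Dlx5 had 3.45, 4.28, 4.08 and 29.4 CPM in the osteoblast and 0.291, 0.128, 0 and 0.838 CPM in the smooth muscle libraries (log2 fold change 5.03 ± 1.09, adjusted p = 0.00511, and 3.65 without replicate 4 and 6.18 without smooth muscle replicate 4 on the log2 scale), Dlx2 was 3.15-fold higher (97.9 ± 50.3 against 31.1 ± 3.95 CPM) and Shox2 2.67-fold lower (56.7 ± 13.6 against 151 ± 6.59 CPM). Of 16 tested neural crest genes 4 were higher and 5 lower (25.3% and 24.4% of all tested genes were), and without replicate 4 these counts were 5 and 8. Twist1 and Tfap2a were not called (114 ± 9.84 against 105 ± 13.3 CPM and 133 ± 15.6 against 153 ± 8.95 CPM), except Tfap2a with scaling by library size alone (log2 fold change -0.41, adjusted p = 0.00197), and Sox10 and Foxd3, markers of early crest, were at or near 0 in all 8 libraries.

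Sterol and fatty acid synthesis genes were higher in 21 and lower in 2 of 26 tested members (median 0.52), or 16 and 3 with scaling by library size alone. Srebf1, which drives lipid synthesis, was 2.12-fold higher (146 ± 2.37 against 68.4 ± 8.99 CPM). Complement, antigen presentation and interferon-stimulated genes were lower in 19 and higher in 3 of 26 (median -0.92). Ifit1 had 1.52, 2.23, 1.72 and 1.18 CPM in the osteoblast and 22.6, 20.6, 22.1 and 26.6 CPM in the smooth muscle libraries (log2 fold change -3.79 ± 0.18, adjusted p = 1.11e-07), Irf1 was 4.35-fold lower (12.3 ± 3.31 against 53.2 ± 4.93 CPM), and Cxcl10 had no count in any osteoblast library against 1.34 ± 0.248 CPM, so that it was at least 43.4-fold lower against a floor of 3 counts over the group. Glycolysis and hypoxia-inducible genes were higher in 10 and lower in 4 of 25, or in 7 and 6 (median 0.03) with scaling by library size alone and 12 and 6 without replicate 4, led by Egln3, an oxygen-sensing hydroxylase (420.5 ± 50.2 against 20.4 ± 2.59 CPM, 20.6-fold). Axon guidance genes were higher in 12 (37.5%) and lower in 10 (31.2%) of 32, against 25.3% and 24.4% of all tested genes. With scaling by library size alone 10 were higher and 12 lower. Plxna2 was 16.8-fold (195 ± 21.9 against 11.6 ± 1.43 CPM) and Sema3c 18.9-fold higher (536 ± 237 against 28.3 ± 3.27 CPM). Adipocyte genes were higher in 9 (50%) and lower in 3 (16.7%) of 18, and Adipoq, Plin1, Cidec and Lep were at or near 0 in every library.

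Markers of most other cell types were low. Listed markers of leukocytes summed to 4.23 to 5.57 CPM in osteoblast and 4.38 to 5.02 CPM in smooth muscle libraries, those of Schwann cells and glia to 8.67 to 14.9 and 8.28 to 9.22 CPM, and those of striated muscle to 5.16 to 8.86 and 12.7 to 15.4 CPM. Endothelial markers summed to 9.95 to 27.4 and 10.3 to 12.5 CPM, neuronal markers to 1.53 to 12.1 and 4.95 to 6.59 CPM, and melanocyte markers to 31.0 to 34.0 and 25.8 to 34.4 CPM, mostly from Mitf. Replicate 4 was the highest osteoblast library for the leukocyte, glial, striated muscle, endothelial, neuronal and epithelial sums and the lowest for the melanocyte and pericyte sums. The epithelial sum of 84.5 CPM in replicate 4 came from Krt19, a keratin, with 1.48, 1.49, 1.44 and 84.3 CPM in the osteoblast and 0.582, 0.607, 0.449 and 0.558 CPM in the smooth muscle libraries. Pericyte markers, shared with mesenchymal cells, summed to 702 to 969 and 538 to 636 CPM, and 4 of 5 were called higher in osteoblast cultures and 1 lower, or 2 and 1 with scaling by library size alone. Ptprc, Cdh5, Sox10, Myod1 and Epcam, which define leukocytes, endothelium, glia, skeletal muscle and epithelium, were too low to test. Their part in the results was not tested.

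The other groups of the series place these genes on the same scale, as levels with no test. Acta2 stood at 49.1 ± 2.28 CPM in proliferating cells at 21% oxygen, against the 3816 and 3876 CPM means of the osteoblast and smooth muscle cultures, and at 2274 ± 234 CPM in chondrocyte cultures. In the smooth muscle cultures at 0.5% oxygen, whose libraries carry 11.6% to 13.3% mitochondrial ribosomal RNA against at most 0.0889% in the other groups, it was 26.9 ± 10.5 CPM. Fkbp5 was 445 ± 64 CPM in chondrocyte cultures and 91.1 ± 8.97 CPM in proliferating cells. Chondrocyte cultures received 0.1 µM dexamethasone, 50 ng/ml BMP-2 and 3 days of osteogenic medium, and the part of each was not tested. Zbtb16 was 37.4 ± 12.5 CPM in chondrocyte cultures and 0.0316 ± 0.0448 CPM in proliferating cells. Alpl reached 317 ± 118 CPM and Sp7 203 ± 53 CPM in chondrocyte cultures, far above replicates 1 to 3 of the osteoblast cultures, and Col1a1 46330 ± 3373 CPM. Osteoblast cultures at 0.5% oxygen had 90.1 ± 9.8 CPM for Alpl and 117 ± 0.29 CPM for Sp7. Crabp1 ran in the order proliferating (2700 ± 80.1 CPM), smooth muscle, osteoblast and chondrocyte (1.07 ± 0.342 CPM) at 21% oxygen, with no overlap between neighbours. Mki67 was 412 ± 55.9 CPM in proliferating cells and 147 ± 28.5 CPM in chondrocyte cultures, whose lowest library overlapped the smooth muscle range, and among the groups at 21% oxygen it was lowest in osteoblast cultures.

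**Figure D5:**
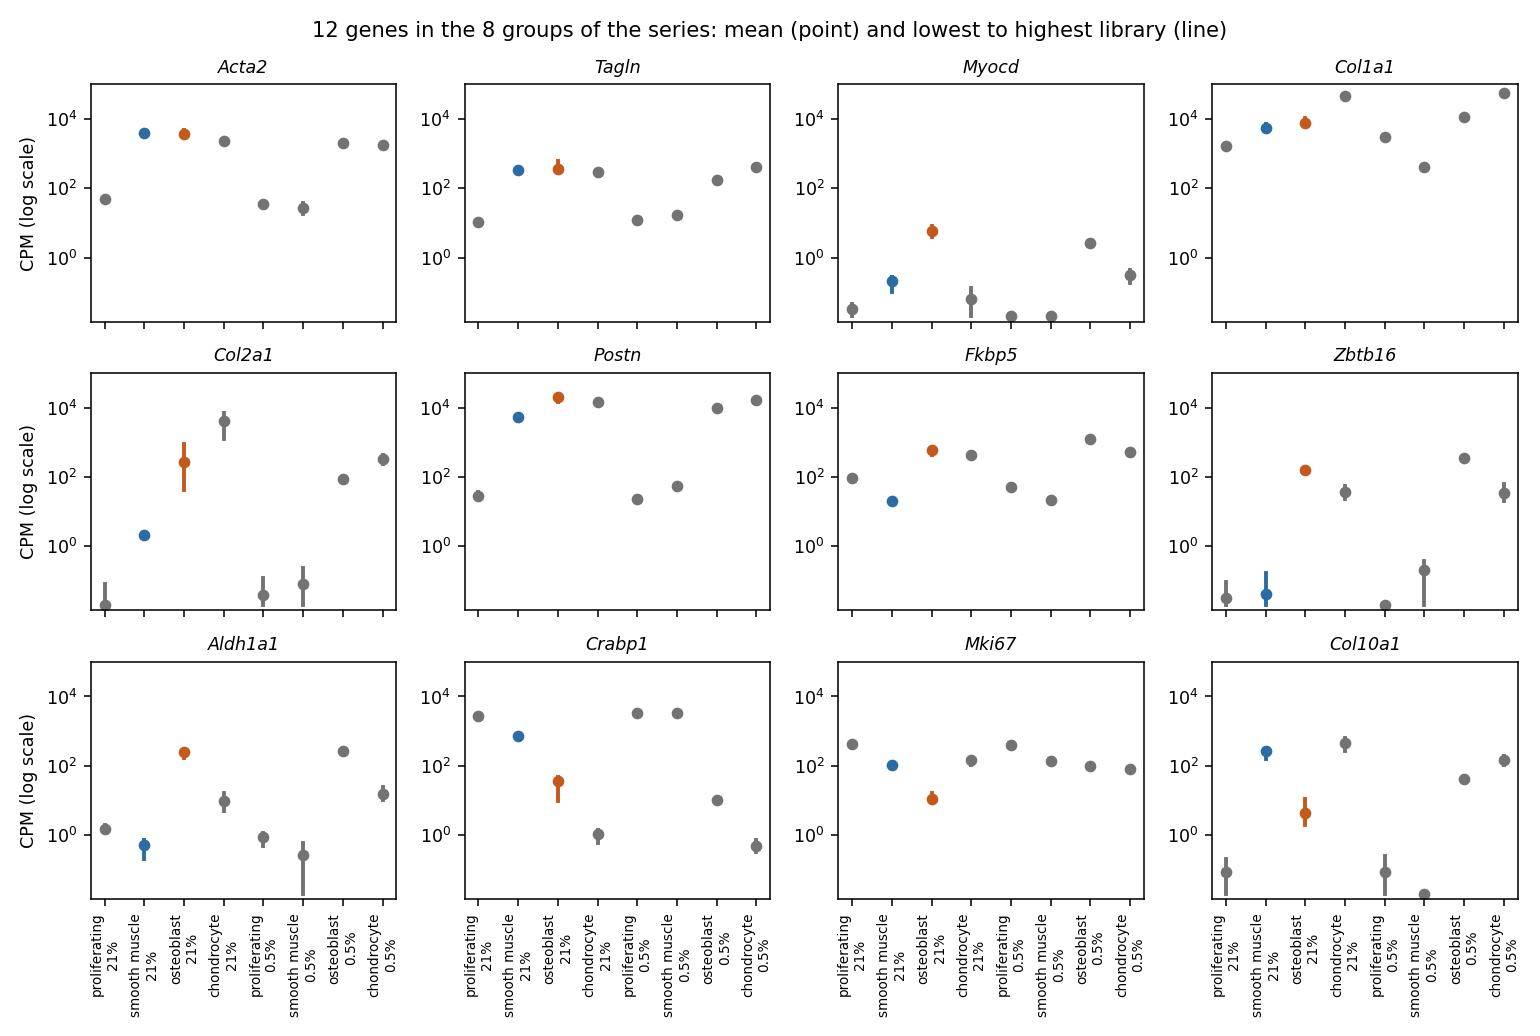
Level of 12 genes in the 8 groups of the series, in CPM on a log scale (values under 0.02 drawn at 0.02), with the mean as a point and a line from the lowest to the highest library. Smooth muscle cultures at 21% oxygen are blue, osteoblast cultures at 21% oxygen orange. Acta2 and Tagln are close in the blue and orange groups, whereas Myocd, Fkbp5, Zbtb16 and Aldh1a1 are higher in the orange group.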

How the data were processed

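The authors deposited raw read counts per gene for all 28 libraries, and the values used here are those whole-number counts. Per the submitters' processing notes, HISAT2 2.0.5, StringTie 1.3.3b and featureCounts 1.5.0-p3 were used with the mm10 build (GRCm38). The annotation, and whether counting used strand, are not given in the sources used here, so overlapping and antisense genes may share counts.

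Libraries were grouped by their labels, and the 4 osteoblast and 4 smooth muscle libraries at 21% oxygen entered the fit. Genes were kept by edgeR's filterByExpr (minimum count 10, minimum total 15), scaled by TMM and tested with edgeR 4.0.16 (quasi-likelihood, robust) in R 4.3.3, with Benjamini-Hochberg adjustment over all tested genes and a threshold of 0.05. The SE is the log2 fold change divided by the root of F. Fold bounds use a floor of 3 counts over the group, and 95% counting intervals cover counting error only. The script was run on simulated counts with few changed genes, a fixed dispersion and no outlying library. That setting differs from these data, so it does not test the effect of replicate 4 or of the scaling.

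Genes named were the 8 largest log2 fold changes each way (at least 10 counts on average in each group and 10 CPM in the higher), the 8 largest differences in CPM each way, up to 4 each way near absence in the lower group, 18 fixed markers and members of gene lists. Genes named by fold change, difference or near absence had to be called and to show no overlap between the groups. Their separation thus follows from the selection. Predicted genes and clone names were left out of it. All members, lists and promoters were chosen with earlier results of these data known. Some genes that the rule selects are not reported here. Symbols were matched for 54314 of 54429 identifiers. Promoters are RefSeq, GRCm38.p6. Alternatives were DESeq2 1.42.0, limma-voom 3.58.1, other scalings, filters and fits, the replicate block and leaving out each library.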

Additional observations from a re-analysis of the deposited data

Results flagged for a closer look

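In 44 of 108 groups of 4 values, over 54 named genes, the highest or lowest library stood far from the other 3 (gap over range above Dixon's 95% critical value for 4 values). Chance alone flags about 1 in 20 groups. Osteoblast replicate 4 was the library in 34 of them. It was the highest of its group, in CPM, for Cpm (531), Col2a1 (924), Ism1 (147), Tubb2b (0.726), Col10a1 (11.2), Gfra1 (1.53), Tnn (6797), Col1a2 (14340), Sparc (7442) and Tubb5 (1060). The same held for Col9a1 (126), Sp7 (54.1), Alpl (47.7), Ibsp (3.82), Bglap (0.535), Col1a1 (11060), Acta2 (4962), Tagln (602), Cnn1 (14.7), Smad6 (158) and Top2a (33.5). It was the lowest of its group for Aldh1a1 (165), Fam107a (131), Aldh1a7 (411), Scara5 (192), Crabp1 (9.58), Col12a1 (8006) and Lox (5881). It was also lowest for Ogn (4666), Eef2 (2686), Sox4 (239), Cpe (415), Hif3a (89.2) and Fkbp5 (429).

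Smooth muscle replicate 4 was the highest of its group for Sparc (2551), Eef2 (5036) and Alpl (5.83) CPM, and the lowest for Col10a1 (161), Doc2b (10.7) and Ednrb (10.5) CPM. Smooth muscle replicate 3 was highest for Tpt1 (3307 CPM) and Zbtb16 (0.173 CPM), smooth muscle replicate 2 for Bglap (0.160 CPM) and osteoblast replicate 2 for Doc2b (0.418 CPM). Zbtb16, Bglap and Doc2b rest on few counts in these libraries.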

How the results depend on the processing

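The counts of called genes, in all and in each direction, kept to within 1.5 times under DESeq2 (7523 called), limma-voom (7242), RLE size factors (7252), no filter on low counts (7101), a filter of 1 CPM in 4 libraries (6893), a fit without robust estimation (7261) and a fit on 16 libraries (7639). With scaling by library size alone, 2313 genes were called higher in osteoblast and 5832 in smooth muscle cultures. A test against a 2-fold threshold (glmTreat) called 1289 genes, 665 higher in osteoblast and 624 in smooth muscle cultures. The replicate block gave 7275 called genes and 2365 with 2-fold change. Of the listed or named genes 20 gained and 10 lost a call in it, and Col1a1 (adjusted p = 0.00296), Wif1 (0.000262) and H19 (0.0107) were called and Loxl1 (0.0524) was not. After subtraction of each group's mean, log2 levels of same-numbered libraries correlated at 0.0529 to 0.169 (1 of 4 pairs over 0.1). Other pairs correlated at -0.122 to 0.0706. The labels name no shared source, so the numbers were not taken to pair the cultures. Leaving out each library gave 6457 to 8852 called genes, 3308 to 4436 higher in osteoblast and 3149 to 4416 higher in smooth muscle cultures, and 2321 to 2570 with 2-fold change (1130 to 1188 and 1191 to 1399).

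Without osteoblast replicate 4, 16 listed or named genes changed sign and were called in at least 1 of the 2 fits. Their log2 fold changes without it, followed by the farthest value on leaving out any other library, were -0.79 to 2.23 for Alpl, -0.30 to 0.17 for Tagln, -0.63 to 0.27 for Actg2, -0.22 to 0.43 for Snai2, 0.15 to -0.11 for Osr1, -0.23 to 0.37 for Id4, 0.15 to -0.06 for Fgf7, 0.16 to -0.08 for Igf1r, -2.18 to 1.83 for Igfbp5, -0.23 to 0.11 for Fbln2, -0.58 to 0.86 for Lum, -0.41 to 0.22 for Adamtsl3, -0.58 to 0.41 for Ccne2, -0.24 to 0.44 for Efnb2, -0.58 to 0.78 for Itga9 and -0.28 to 0.40 for Cyp26b1. With library size alone this held for Cdh11 (-0.19) and Cdon (-0.0090). Genes that changed sign without such a call are not counted. Under limma-voom 17 of the listed or named genes lost their call. The cause was not tested. Differences in genes of few counts are limited by depth, and 4 libraries a group limit the precision of all.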

Other observations

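Members of 4 further gene lists were assembled after their values had been seen, so their counts are a description with no test. Of 16 tested retinoid genes, 5 were higher in osteoblast and 7 in smooth muscle cultures. Besides Aldh1a1 and Aldh1a7, the retinal reductase gene Dhrs3 was 7.16-fold higher in osteoblast cultures (122 ± 27 against 17.1 ± 1.86 CPM). The retinoic acid synthesis gene Aldh1a3 (0.0216 ± 0.0251 against 2.46 ± 1.01 CPM) was lower. Detoxification genes were higher in 8 and lower in 7 of 18, and the flavin-containing monooxygenase genes Fmo1 (188 ± 38.5 against 22.3 ± 6.62 CPM) and Fmo2 (175 ± 27.5 against 4.22 ± 0.819 CPM) were higher.

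Of 79 ribosomal protein genes, 69 were called lower in osteoblast cultures and 1, Rpl14, higher, with a median log2 fold change of -0.485, against -0.504 without replicate 4 and -0.700 with scaling by library size alone. These genes share reads with near-identical copies, so single values are uncertain. Tubulin genes were lower in 5 and higher in 1 of 12 (median -0.44), or in 9 and 1 without replicate 4 (median -0.89), whose own median was 0.21, and Tubb6 (45.7 ± 13.9 against 105 ± 6.96 CPM) and Tubb4b (70.7 ± 20.9 against 112 ± 10.2 CPM) were lower beside Tubb2b and Tubb5.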
